A study of Mus musculus with 5 samples.

Results

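The AP-1 and immediate-early set holds 10 genes, taken by their symbols from the deposited tables of 5 RNA sequencing libraries: Fos, Fosb, Fosl2, Jun, Junb, Jund, Egr1, Ier2, Atf3 and Dusp1. All 10 of them were listed in at least 1 library, among 14161 genes listed in any. The libraries came from mesenchymal stem cells grown out of mouse femur marrow, the adherent marrow cells known as precursors of bone, cartilage and fat. The genotype was Bmal1-knockout in 3 of them and wild type in 2, and all donor mice were C57BL/6 and 6 to 8 weeks old, with cells at passages 1 to 3 in medium with fetal bovine serum. The labels name no other allele or agent, do not give the deleted part of the gene, and do not say whether libraries of a group came from separate animals, so p-values measure only the spread between these libraries. BMAL1 (gene symbol Arntl) is the CLOCK partner at the core of the circadian clock, and the comparison asks which genes differ when it is missing. No source used here gives the hour of harvest or the time since the last change of medium.

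AP-1 is a transcription factor made of a pair of proteins joined through their leucine zippers. Jun proteins can pair with each other or with a Fos protein, while Fos proteins need a Jun partner. Immediate-early genes are those that cells switch on within minutes of serum, growth factors or stress, without making new protein, and their messages decay fast. Fos, Fosb, Jun, Junb, Egr1, Ier2 and Atf3 belong to them. So does Dusp1, whose product removes phosphate from MAP kinases and so ends the signal. Jund is made more steadily. In bone marrow stroma and in macrophages these factors are known for shaping bone formation, osteoclast formation and inflammatory gene expression.

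In the knockout libraries Fos, Junb and Egr1 were lower, Fos by more than 4-fold, while Jun, Jund and Fosl2 did not pass the test. Of the 10 genes, 7 had counts high enough to test, and 3 fell, none rose and 4 did not pass. Without wild type 2, with DESeq2 and with no filter on low counts, Fos was the 1 gene of the set called lower. Among all 3710 genes tested, 8.14% were called lower (edgeR's quasi-likelihood test with Benjamini-Hochberg adjustment, adjusted p under 0.05). Fos and Dusp1 reached the minimum count of 10 in wild type libraries alone, so they were tested through the group in which they were high. In 6 of the 10, namely Fos, Junb, Egr1, Dusp1, Ier2 and Atf3, every knockout level lay below both wild type levels. Over all tested genes, which leave out Ier2 and Atf3, that was so for 21.6%. No member lay wholly above, as 21.2% of tested genes did. Levels are CPM, counts per 1e6 of a library's scaled total of tested genes, unless FPKM is named.

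The libraries were shallow, with 211623 to 281990 expected counts each, so that 3 counts, the limit that a count of 0 allows, stood for 12.1 to 15.9 CPM. These limits and the exact Poisson intervals below (95%) cover counting error only. For Arntl itself 4, 1 and 2 counts were listed in knockout 1, 2 and 3, and 5 and 0 in wild type 1 and 2, so it does not check the labels at this depth. Markers of macrophages, which grow alongside stromal cells in marrow cultures, summed to 9175 to 10204 CPM in the knockout and 14786 to 15429 CPM in the wild type libraries (12 of 12 listed; 7 of 11 tested fell, none rose). That count was 3 without wild type 2, and 4 without wild type 1, without knockout 2, with DESeq2 or with no filter. The stromal markers summed to 12782 to 13721 and 4971 to 4996 CPM (13 of 13 listed; 5 of 9 tested rose, none fell). Among macrophage markers Lyz2, a lysozyme, had a log2 fold change of -0.67 and Ctss, a protease of antigen presentation, -0.86. Among stromal markers the collagen genes Col3a1 and Col1a2 had 1.38 and 1.51. The 5 that rose, these and Col1a1, Sparc and Cxcl12, encode secreted proteins. The tested markers of the cell surface did not pass, with -0.34 for Pdgfra, 0.15 for Pdgfrb, -0.22 for Ly6a and 0.82 for Vcam1. Of the surface proteins that define mesenchymal stem cells, Thy1 had 0 to 3 counts in a library, Eng 4 to 8 and Nt5e 3 to 6. In such bulk RNA fewer cells of a type and less RNA per cell cannot be told apart.

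Among the Fos-type subunits Fos itself (Entrez gene 14281, chromosome 12, 85473890 to 85477274, mm10) was the 1 that passed the test. Fos had 5, 9 and 6 counts in knockout 1, 2 and 3, and 25 and 28 counts in wild type 1 and 2. Its level in CPM was 24.02, 42.8 and 24.3 for knockout 1, 2 and 3, and 117 and 149 for the wild type libraries. The groups did not overlap, and even knockout 2, the highest of its group, stayed well below the lower wild type library. The mean was 30.4 ± 10.8 CPM (SD, n = 3) against 133 ± 22.2 (n = 2). This was a log2 fold change of -2.12 (SE 0.40; edgeR adjusted p = 3.95e-06), a 4.34-fold lower level. The ratio of summed counts, 20 against 53, was 0.227 with an exact interval of 0.129 to 0.387. Fos fell past the test in all 12 other settings and left-out libraries, with log2 fold changes from -2.42 to -1.95 when a library was left out.

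Fosl2, which encodes the Fos-related protein FRA-2 (Entrez gene 14284, chromosome 5, 32136472 to 32157840), did not pass. The knockout libraries had 17, 19 and 25 counts against 14 and 28, and the wild type values enclosed all knockout levels. The log2 fold change was -0.20 (SE 0.34; edgeR adjusted p = 0.753), and its sign turned to 0.47 without wild type 2. The exact interval of the ratio ran from 0.581 to 1.33. Fosb, another inducible Fos-type subunit (Entrez gene 14282, chromosome 7, 19302696 to 19310118), had 1 count in knockout 1 and 2 counts in wild type 2 and was listed in no other library. Its ratio of 0.301 had an exact interval of 0.00511 to 5.79, so no difference was detectable at this depth.

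**Figure D1:**
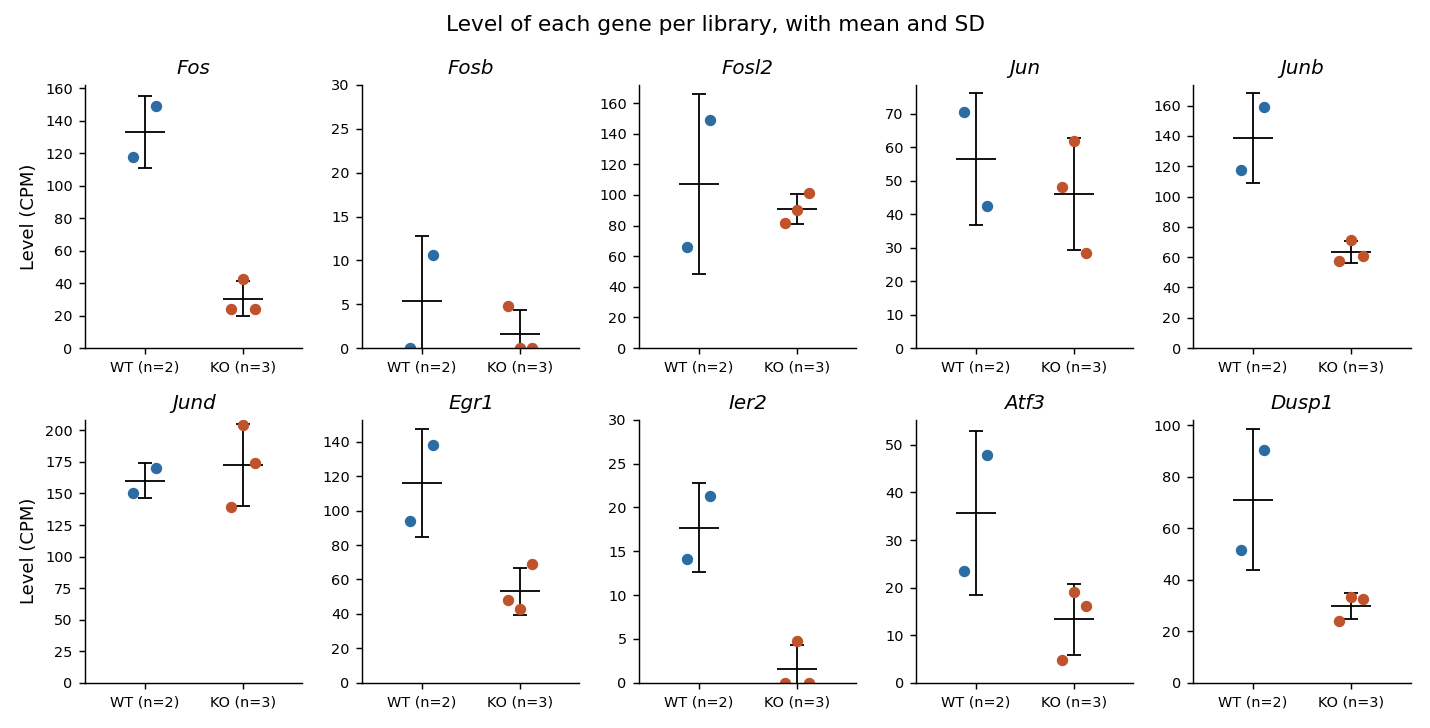
Level in CPM (vertical axes, each from 0) of the 10 genes in the 2 wild type (blue) and 3 knockout (orange) libraries; points are libraries, horizontal marks are means and bars are SD. For Fos, Junb, Egr1, Dusp1, Ier2 and Atf3 every knockout point lies below both wild type points, while for Fosb, Fosl2, Jun and Jund the groups overlap.

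Of the Jun-type subunits Junb passed the test and Jun and Jund did not. Junb, which encodes a Jun protein that often restrains cell division (Entrez gene 16477, chromosome 8, 84976909 to 84978748, mm10), gave 12, 15 and 15 knockout counts against 25 and 30. Its levels were 57.6, 71.3 and 60.7 CPM in the knockout libraries. The wild type levels, 117 and 159 CPM, both lay above these. Junb fell by 1.12 on the log2 scale (SE 0.35; edgeR adjusted p = 0.0119), with means of 63.2 ± 7.17 CPM (SD, n = 3) and 138 ± 29.7 (n = 2). It no longer passed when wild type 2 was left out (-0.89, adjusted p = 0.256) or with DESeq2 (-1.11, adjusted p = 0.0985). Of the Junb exons, 173 bases lie opposite exons of Prdx2, a peroxidase gene, on the other strand, and no source used here states the strand setting.

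Jun, which encodes c-Jun, the partner best known for pairing with c-Fos (Entrez gene 16476, chromosome 4, 95049036 to 95052222), gave 10, 13 and 7 knockout counts against 15 and 8. The groups overlapped, and the highest and lowest of all 5 levels were 70.5 CPM in wild type 1 and 28.3 CPM in knockout 3. Its log2 fold change was -0.33 (SE 0.45; edgeR adjusted p = 0.680), or 0.07 without wild type 1. The exact interval of the ratio, 0.441 to 1.42, leaves room for a difference of the size seen for Junb.

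Jund, which encodes the most steadily made Jun protein (Entrez gene 16478, chromosome 8, 70697739 to 70700616), gave 29, 43 and 43 knockout counts against 32 in each wild type library. Knockout levels of 139 to 204 CPM overlapped the wild type levels of 150.3 and 170.1 CPM. The log2 fold change was 0.11 (SE 0.27; edgeR adjusted p = 0.837), with -0.01 without knockout 2. With the most counts of the set, Jund had the exact interval of the ratio with the least relative width, 0.791 to 1.49, which does not reach the ratio of Fos or Junb. Exons of Gm11175 lie opposite 877 bases of Jund and exons of Junos opposite 232 bases of Jun, so reads of these pairs cannot be told apart without strand.

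Egr1, a zinc finger factor induced through serum response elements (Entrez gene 13653, chromosome 18, 34861207 to 34864956), gave 10, 9 and 17 knockout counts against 20 and 26. These stand for 48.0, 42.8 and 68.8 CPM against 94.0 and 138 CPM, with no overlap. Egr1 fell by 1.09 on the log2 scale (SE 0.37; edgeR adjusted p = 0.0262). Egr1 did not pass without knockout 1 (-1.01, adjusted p = 0.0757), knockout 2 (-0.95, adjusted p = 0.115) or wild type 2 (-0.80, adjusted p = 0.392). Nor did it pass with DESeq2 (-1.10, adjusted p = 0.163) and on log2(FPKM + 1) with limma (-1.10, adjusted p = 0.0764).

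Dusp1, the MAP kinase phosphatase MKP-1 (Entrez gene 19252, chromosome 17, 26505591 to 26508472), gave 5, 7 and 8 knockout counts against 11 and 17. The groups did not overlap, 24.02 to 33.3 CPM against 51.7 and 90.3, but the gene did not pass the test. Its log2 fold change was -1.21 (SE 0.49; edgeR adjusted p = 0.0685), and the exact interval of its ratio of 0.430 was 0.230 to 0.792. Without wild type 2 the fitted value was -0.78 (adjusted p = 0.664) and the exact interval, 0.266 to 1.34, included 1.

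Ier2 and Atf3 were too low to test in the main fit. With no filter on low counts neither passed, at -3.09 for Ier2 (edgeR adjusted p = 0.352) and -1.32 for Atf3 (edgeR adjusted p = 0.522). Ier2, which encodes a serum-induced nuclear protein (Entrez gene 15936, chromosome 8, 84661331 to 84662852), had 1 count in knockout 2, none in the other knockout libraries, and 3 and 4 counts in the wild type libraries. The ratio was 0.0861 with an exact interval of 0.00191 to 0.670. The interval reached 1.06 without knockout 3 (ratio 0.137) and 1.33 without wild type 2 (0.107), and without knockout 2 the knockout had 0 counts. Atf3, a stress-induced factor that pairs with Jun proteins and often represses (Entrez gene 11910, chromosome 1, 191170296 to 191183333), gave 1, 4 and 4 knockout counts against 5 and 9. Its ratio was 0.387 (0.148 to 0.961). The interval included 1 without knockout 1 (ratio 0.501), knockout 3 (0.342) or wild type 2 (0.576). Atf3 thus rests on 23 counts in all, of which wild type 2 held the most.

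**Figure D2:**
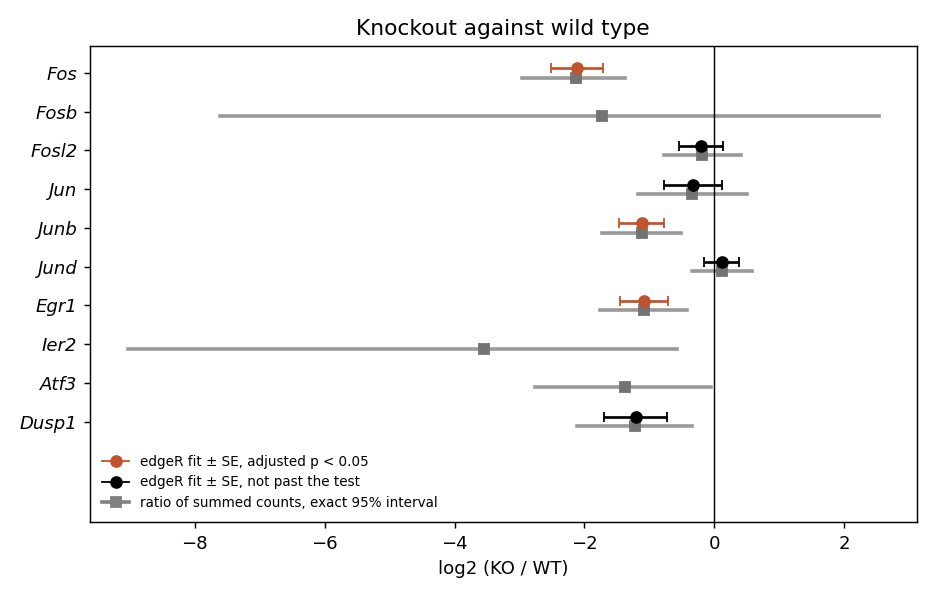
Knockout against wild type on the log2 scale (horizontal axis) for the 10 genes: circles are edgeR fits with their SE, orange where the adjusted p was under 0.05 and black where not, and grey squares are ratios of summed counts with exact 95% intervals. Fos lies at -2.12, Junb and Egr1 at -1.12 and -1.09, and the intervals of Fosb, Fosl2, Jun and Jund include 0.

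Fos was then compared with the Jun subunits and Egr1 within each library, a ratio of counts that needs no scaling between libraries. Against Jund, the log2 ratio (0.5 added to each count) was -2.42, -2.20 and -2.74 in the knockout, against -0.35 and -0.19. Fos thus stood near Jund in counts in the wild type libraries and far below it in each knockout library. Summed over libraries, the Fos count was 0.174 times that of Jund in the knockout and 0.828 times in the wild type. The mean difference was -2.18, with SDs of 0.28 (n = 3) and 0.11 (n = 2). Against Jun the difference was -1.78, from log2 ratios of -0.93, -0.51 and -0.21 in the knockout against 0.72 and 1.74. Fos was below Jun in counts in every knockout library and above it in both wild type libraries.

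The ratio of Fos to Junb also stood lower, at a difference of -0.999 on the log2 scale. Knockout values were -1.18, -0.71 and -1.25, and wild type values were 0 and -0.10. The difference against Egr1 was -0.997, with -0.93, 0 and -1.43 in the knockout against 0.31 and 0.10, so that knockout 2 came close to wild type 2. In all 4 pairs the groups did not overlap. All 4 share the Fos count, which did not overlap by itself, so they are not separate results. How often other pairs of genes lack overlap was not computed. An exact two-sided permutation test over libraries (10 arrangements) gave p = 0.1 for Jun, Junb and Jund, the smallest this design allows, and p = 0.2 for Egr1 (0.133 and 0.2 after adjustment over the 4 pairs). This permutation test therefore cannot pass at 0.05 with 3 libraries against 2. Fisher's exact test of the summed counts, which covers counting error only, gave adjusted p = 6.36e-07 for Jund, 0.00317 for Jun and 0.0442 for both Junb and Egr1.

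**Figure D3:**
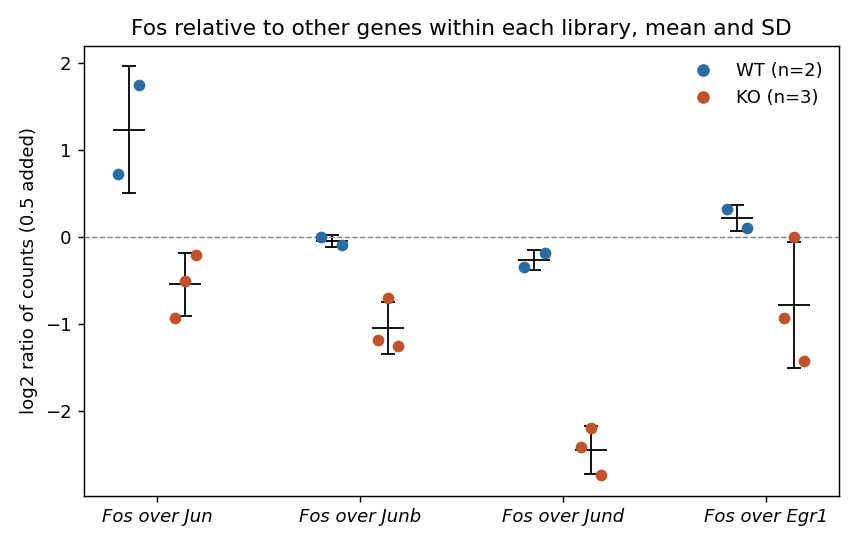
Log2 ratio of the Fos count to the count of Jun, Junb, Jund or Egr1 (vertical axis, 0.5 added to each count) in each library; blue points are wild type, orange points knockout, with mean and SD. The gap is widest for Jund, where all knockout libraries lie between -2.74 and -2.20 and the wild type libraries at -0.35 and -0.19.

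Levels of different genes can be compared per length, on the scale of the deposited FPKM. In both wild type libraries Junb was highest of the 10 genes (48.2 and 66.5 FPKM), followed by Fos (41.7 and 53.7) and Jund (38.1 and 43.9). In all 3 knockout libraries Jund was highest (36.2, 50.5 and 42.3 FPKM) and Junb next (24.2, 28.5 and 23.9). Fos had 8.72, 14.8 and 8.26 FPKM there, and stood at place 7, 3 and 6 of the 10. The order of Fos, Fosl2, Jun, Egr1 and Dusp1 changed from 1 knockout library to the next, all of them lying between 6.23 and 15.7 FPKM there.

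Of the summed FPKM of the 6 Fos-type and Jun-type genes of the set, Fos made up 9.53%, 12.5% and 8.93% in the knockout, against 27.4% and 27.6%. The Fos-type genes of the set together made up 21.7%, 21.6% and 21.7%, against 32.6% and 38.1%. These sums leave out Fosl1, a Fos-type gene outside the set. It had 11, 7 and 4 knockout counts against 8 and 3, so the shares are not those of the whole family. Within the Jun-type genes, Jund was the larger part in the knockout, with 50.5%, 54.4% and 58.4% against 37.2% and 36.5%. Junb had 33.8%, 30.7% and 33.0% there and 47.0% and 55.3% in the wild type libraries. These shares are descriptions of the same counts as above and were not tested.

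**Figure D4:**
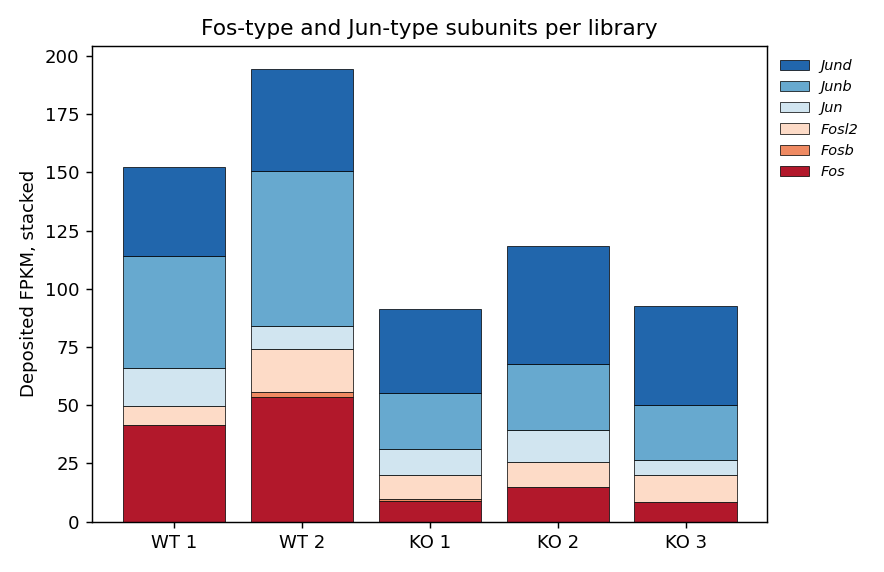
Deposited FPKM (vertical axis, from 0) of the 3 Fos-type (red shades) and 3 Jun-type (blue shades) genes of the set, stacked for each library. The Fos segment is 41.7 and 53.7 FPKM in the wild type and 8.26 to 14.8 FPKM in the knockout libraries, while the Jund segment has a similar height in both groups.

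Since macrophage markers moved with the groups, the counts were also set against them. Most of these marker counts came from Lyz2 alone. It gave 1476 of 2124, 1374 of 1930 and 1667 of 2350 in knockout 1, 2 and 3. In wild type 1 and 2 it gave 2331 of 3284 and 1991 of 2782. Per 1000 macrophage marker counts there were 2.35, 4.66 and 2.55 Fos counts in the knockout, against 7.61 and 10.1, again with no overlap. The same values for Junb were 5.65, 7.77 and 6.38 against 7.61 and 10.8, and for Egr1 4.71, 4.66 and 7.23 against 6.09 and 9.35, and these overlapped. The share of all genes without overlap on this scale was not computed. The part of macrophage numbers in the levels of Fos, Junb and Egr1 was not tested.

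Of the 8 genes searched, only Dusp1 held an E-box in the stretch before its start of transcription. Such stretches are shown for Fos and Junb, which fell, for Jund, which did not pass, and for Dusp1. Each is the 250 bases upstream of the RefSeq start (GRCm38.p6), read on the gene's strand, at chr12:85473640-85473889 (plus), chr8:84978749-84978998 (minus), chr8:70697489-70697738 (plus) and chr17:26508473-26508722 (minus). Capitals mark matches, on either strand, to the cAMP response element core TGACGT, the AP-1 site TGANTCA, the E-box CACGTG bound by CLOCK and BMAL1, the EGR site GCGNGGGCG or the CArG box of serum response factor.
Fos: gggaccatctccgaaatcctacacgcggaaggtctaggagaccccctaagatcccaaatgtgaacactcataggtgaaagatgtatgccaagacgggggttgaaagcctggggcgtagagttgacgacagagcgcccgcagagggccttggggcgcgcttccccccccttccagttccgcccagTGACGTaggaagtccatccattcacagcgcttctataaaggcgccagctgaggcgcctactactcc
Junb: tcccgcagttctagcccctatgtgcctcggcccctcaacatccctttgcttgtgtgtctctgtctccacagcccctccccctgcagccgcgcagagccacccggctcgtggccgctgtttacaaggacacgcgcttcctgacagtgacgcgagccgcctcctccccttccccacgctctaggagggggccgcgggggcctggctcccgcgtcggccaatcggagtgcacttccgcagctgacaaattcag
Jund: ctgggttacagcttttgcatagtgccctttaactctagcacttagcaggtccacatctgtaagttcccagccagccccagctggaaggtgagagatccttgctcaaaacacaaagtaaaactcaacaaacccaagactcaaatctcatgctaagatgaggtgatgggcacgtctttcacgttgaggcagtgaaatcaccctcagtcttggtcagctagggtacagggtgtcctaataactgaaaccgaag
Dusp1: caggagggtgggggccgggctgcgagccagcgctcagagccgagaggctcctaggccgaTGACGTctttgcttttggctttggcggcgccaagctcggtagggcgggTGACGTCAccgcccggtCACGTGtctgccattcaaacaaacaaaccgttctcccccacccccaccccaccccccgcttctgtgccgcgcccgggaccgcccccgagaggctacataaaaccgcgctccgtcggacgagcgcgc
Windows of 8 of the 10 genes were searched. Those of Egr1 and Ier2 were not searched, so nothing is said of them. The Fos window held 1 response element core, 66 to 61 bases before the start, and Atf3 held 1, 8 to 3 bases before it. Dusp1 held this core 3 times, where the second and the third overlap as one palindrome, and its E-box lay 126 to 121 bases before the start. Fosb and Fosl2 each held 1 EGR site. The Fosb window, 19310046 to 19310295 on chromosome 7, begins inside the gene span given above, which ends at 19310118. The EGR site of Fosb lies in that overlap and so not before the start of this span. No match to these letters lay in the windows of Jun, Junb and Jund. Of all 32851 RefSeq windows of this length, 6.47% held the response element core, 6.75% the AP-1 site, 6.02% the E-box, 4.70% the EGR site and 1.47% the CArG box. A match is a description of the letters only.

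Genes around the set were taken from 5 lists. Of 13 other members of the wider AP-1 family (ATF, MAF, BATF and related genes) 12 were listed and 6 tested, and none passed in either direction in the main edgeR fit. The median log2 fold change there was -0.41, beside 0.007 over all tested genes, and 1 of the 6 had an unadjusted p under 0.05. With the replicate block 1 was called lower, and without knockout 3 again 1. Atf4, the factor of the integrated stress response, was at -0.57 (adjusted p = 0.250).

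A further 35 immediate-early genes were sought, of which 33 were listed and 9 could be tested. Among these 9, 1 rose and 2 fell, beside 8.19% of all tested genes higher and 8.14% lower, with a median of -0.46. Mcl1, an inducible survival factor, gave 40, 54 and 70 knockout counts against 89 and 95, and fell by 0.90 (SE 0.19; edgeR adjusted p = 5.97e-05). Btg1, an antiproliferative gene, fell by 1.16 (adjusted p = 0.000287) but did not pass once wild type 1 was left out (-0.93, adjusted p = 0.101). Cyr61, a matricellular protein gene driven by serum response factor and YAP, went the other way, with 47, 27 and 37 against 16 and 13 counts. Its rise of 1.20 (SE 0.33; edgeR adjusted p = 0.00323) lost its call without knockout 1 (0.95), wild type 1 (1.25) or wild type 2 (1.14). Immediate-early genes as a class thus did not all differ in 1 direction.

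Of 27 genes of the MAP kinase and serum response factor route upstream, all were listed and 13 tested, and 1 fell with a median of -0.009. This was Mapkapk2, the kinase MK2 that stabilises inflammatory messages (-0.98, SE 0.36, edgeR adjusted p = 0.0414), and it did not pass when any 1 library was left out (adjusted p from 0.0557 to 0.285). Of 11 other dual specificity phosphatases 10 were listed and 2 tested, Dusp6 (-0.78, adjusted p = 0.248), which acts on ERK, and Dusp3 (-0.45, adjusted p = 0.553). Neither passed with edgeR, and neither had an unadjusted p under 0.05.

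Of 18 genes known as AP-1 targets in other cells, 17 were listed and 15 tested; 3 rose and 4 fell, beside 8.19% and 8.14% of all tested genes, with a median of 0.05. Without wild type 2 there were 2 in each direction, and without wild type 1 there were 2 higher and 4 lower. Lox, which cross-links collagen, rose by 1.47 (adjusted p = 1.97e-23) and Fn1, fibronectin, by 0.89 (adjusted p = 8.79e-12). Hmox1, the haem-degrading enzyme, fell by 1.05 (adjusted p = 2.8e-09) and Vegfa, the vascular growth factor, fell by 1.03 (adjusted p = 2.81e-06), all by edgeR. The list holds Mmp3, which the study's title names and which was among the 3 that rose. The list is therefore not independent evidence of that gene's direction. Mmp3 had 16, 18 and 20 counts in the knockout libraries, against 7 and 5 in the wild type libraries. It reached the filter's minimum count in knockout libraries alone, so it was tested through the group in which it was high. Mmp3 was at 1.42 (edgeR adjusted p = 0.0187), and did not pass without wild type 1 (1.57, adjusted p = 0.134) or wild type 2 (1.28, adjusted p = 0.198). Its adjusted p was also above 0.05 with no filter (0.0675), the replicate block (0.0594), DESeq2 (0.126) and voom (0.163). The genes of this list moved in both directions. Stromal matrix genes were among those that rose, while stromal markers were higher and macrophage markers lower, as given above. The part of Fos, Junb or cell numbers in these changes was not tested.

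**Figure D5:**
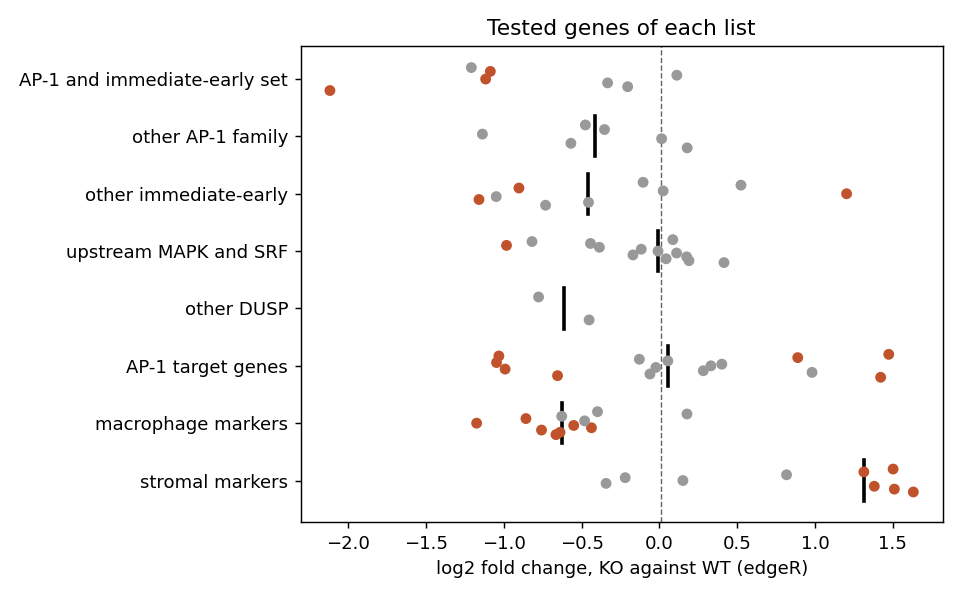
Log2 fold change of each tested gene (horizontal axis, edgeR) in the AP-1 and immediate-early set, the 5 surrounding lists and the 2 marker lists; orange points had an adjusted p under 0.05, grey points did not, black bars are medians of all rows but the AP-1 and immediate-early set, and the dashed line is the median of all tested genes. Within the set Fos lies farthest left at -2.12; the AP-1 targets have their median at 0.05, macrophage markers at -0.63 and stromal markers at 1.31.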

How the data were processed

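Total RNA of 5 cultures was sequenced on Illumina libraries, 3 Bmal1-knockout and 2 wild type, per the labels. Per the file headers, each table deposited by the authors gives genes an expected count (estimated reads, not normalized), a length and an FPKM (scaled by length and library size). Per the submitters' processing notes the build was mm10 and the tools were RSEM, Bowtie2, StringTie and HISAT2, with roles and versions unstated. A gene missing from a table was taken as 0. Expected counts (93.8% to 94.2% whole within 0.005 per library; those of the 10 genes all whole) were rounded.

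Counts were fitted with edgeR 4.0.16 in R 4.3.3: filterByExpr (minimum count 10, total 15), TMM scaling, robust quasi-likelihood tests of genotype and Benjamini-Hochberg adjustment over 3710 genes at 0.05; the script was tested on simulated data. SE came from the F statistic. FPKM values were used for levels between genes, and with limma 3.58.1 on log2(FPKM + 1). Alternatives were RLE scaling, no filter (total of at least 1), unrounded counts, DESeq2 1.42.0, voom, a replicate block, and each library left out. Named genes were the 10 members, Arntl, the 2 highest markers of each cell type and the further stromal markers given above. For each list they were at most 2 called genes in either direction, by significance (without calls, the 2 nearest to the threshold). A gene that this rule names in the wider AP-1 family is not reported here. The members and lists were chosen with earlier results of these data known. Coordinates and promoter windows are from RefSeq (GRCm38.p6), opposite-strand exons from GENCODE M21.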

Additional observations from a re-analysis of the deposited data

How the results depend on the processing

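Fos was lower and past the test in every setting run. With no filter, with DESeq2 and without wild type 2, 1 of the 10 genes was called lower (Fos), and 1 to 3 were with a library left out; none was called higher in any setting. Junb also lost its call with no filter (-1.09, adjusted p = 0.0557), and Egr1 did so too (-1.06, adjusted p = 0.109); with no filter more genes enter the adjustment. DESeq2 gave no adjusted p for Fosb, Ier2 and Atf3. Over all genes, DESeq2 called 172 higher and 134 lower and limma on log2(FPKM + 1) called 171 and 171, against 304 and 302; with a library left out 144 to 323 were higher and 146 to 287 lower. The cause of these shifts was not tested. Signs turned for genes that had not passed: with a library left out, Jund ranged from -0.011 (without knockout 2) to 0.248 (exact ratio 0.991 to 1.18), Jun from -0.637 to 0.073 (without wild type 1; 0.639 to 1.06) and Fosl2 from -0.716 to 0.468 (without wild type 2; 0.616 to 1.39). Without wild type 1 the exact interval of Fosl2 was 0.388 to 1.001, with an exact p of 0.0399. By Fisher's exact test the Fos ratios differed by -1.79 (Jun), -1.02 (Junb), -2.25 (Jund) and -1.05 (Egr1) on the log2 scale. The deviations of same-numbered libraries had correlations of -0.008 and 0.026 over genes. At this depth counting error can hide a shared effect, so these values do not settle whether the libraries were paired. With the replicate number as a block Junb was at -1.09 (adjusted p = 0.0556), Fos at -1.98 (adjusted p = 0.000716) and Egr1 at -1.33 (adjusted p = 0.0328), and 229 genes were higher and 212 lower. The depth limits Fosb, Ier2 and Atf3, which had at most 9 counts in a library.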

Other observations

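Further immediate-early genes were too low to test and are given by their counts, in knockout 1, 2 and 3 and then wild type 1 and 2; they were chosen after their values were seen. Ptgs2, the inducible cyclooxygenase, had 4, 3 and 1 against 5 and 18, so its wild type excess lies in wild type 2. Zfp36, whose product tristetraprolin destabilises cytokine messages, had 3, 6 and 7 against 10 and 9. Gadd45b and Gadd45g, stress sensors of the same family, went the other way, with 7, 5 and 10 against 3 and 1 and with 6, 7 and 9 against 1 and 4. The third gene of that family, Gadd45a, did not, with 2, 4 and 1 against 5 and 4. Nr4a1, Nr4a2 and Nr4a3, the orphan nuclear receptors of the immediate-early class, had 0 to 3 counts in any library. None of these values was tested.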
